A study of Yarrowia lipolytica with 9 samples.

Results

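The transcriptome of mutant Yl_5_2 was set directly against that of mutant Yl_5_3, both strains of the oleaginous yeast Yarrowia lipolytica that make beta-carotene. All 6 samples of these strains, 3 of each, were taken of the 9 samples sequenced, and the other 3 belong to the control Yl_5_1. Of the 6145 features in the deposited count table, the 6026 with at least 10 counts in at least 3 of the 6 samples were compared. All strains descend from ATCC 201249, carry the introduced beta-carotene genes and hold 5 extra expression cassettes of Yl-SPT15. In Yl_5_2, cassette 1 encodes E208A and cassette 5 encodes P25T, A213T and A216V, with positions counted from the first residue of the 227-residue protein. In Yl_5_3, cassette 2 encodes F194L, as the study's text assigns it, although the supplementary sequence with this change is headed as one of Yl_5_2. The other cassettes of the mutants, and all 5 of the control Yl_5_1, are wild type. The cassettes were targeted to GUT2, the gene of the mitochondrial glycerol-3-phosphate dehydrogenase, where the study could place the left end of the insertion and not the right one. Cultures were shaken at 250 rpm and 28 °C for 96 h. Yl_5_2 was picked as a deep yellow colony and Yl_5_3 as a light yellow one, so that each mutant is 1 clone, and the named substitutions and anything else in which the clones differ cannot be told apart. The labels do not say whether the 3 samples of a strain came from separate cultures, so p-values measure only the spread between these samples, which may be technical.

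SPT15 encodes the TATA-binding protein in Saccharomyces cerevisiae, and Yl-SPT15 is its likely counterpart. The protein binds promoter DNA at or near the TATA box and, as part of TFIID or delivered by SAGA, starts the assembly of the RNA polymerase II machinery. It also takes part in transcription by RNA polymerases I and III. Mutant alleles of such a general factor can change many transcripts at once, which is the basis of global transcription machinery engineering, and the comparison asks how far the transcriptomes of strains with different alleles differ. Yarrowia lipolytica stores lipid in large droplets, which also hold lipophilic compounds such as carotene.

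The total count was between 17771507 and 21640003 in the 6 samples, and between 17771894 and 23288547 in the control samples. Counts were scaled by edgeR's TMM factors, which ranged over 1.04 to 1.06 for Yl_5_2, against 0.942 to 0.953 for Yl_5_3, without overlap. The squared correlation of log2(FPKM + 1) across features was at least 0.994 within a strain and between 0.947 and 0.957 between the mutants. The chi-square of the counts per degree of freedom was 3.31 to 13.9 within a strain and 120 to 152 between strains, so that no 2 samples agreed within sampling noise. Replicate 3 of Yl_5_2 stood farthest from its strain, with 8.47 and 13.9 to the other two. The biological coefficient of variation was 0.0507 in Yl_5_2 and 0.0308 in Yl_5_3. Each library is a bulk sample, so fewer cells with a transcript and less of it per cell cannot be told apart.

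Most transcripts differed between the mutants, mainly by little, while the large differences were nearly all towards higher levels in Yl_5_2. The quasi-likelihood test of edgeR called 4152 features, or 68.9% of those tested, where the p adjusted by Benjamini-Hochberg over all 6026 was under 0.05. Of these, 2100 (34.8%) were higher and 2052 (34.1%) were lower in Yl_5_2. Among them the log2 fold change had a median size of 0.36, with quartiles of 0.23 and 0.56, and 76.9% differed by less than 1.5-fold. The median standard error (SE) over all features was 0.05. Features are called stringent here where they also changed more than 2-fold and had an adjusted p under 0.001, and 335 did so (5.56% of those tested). They were 294 higher (4.88%) and 41 lower (0.68%) in Yl_5_2, so that 87.8% of the large differences had the one direction. More than 4-fold differences were called in 55 features higher and 8 lower, and more than 8-fold ones in 11 higher and 1 lower.

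**Figure D1:**
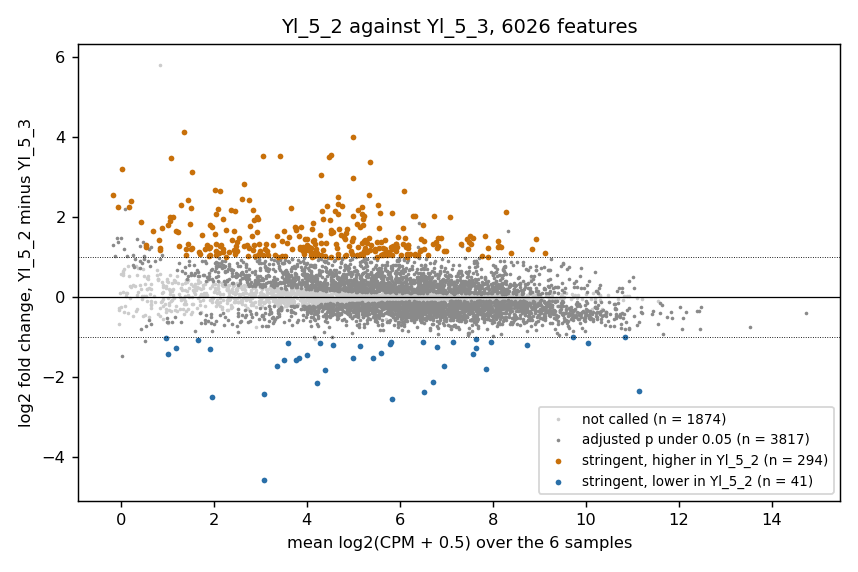
Log2 fold change of Yl_5_2 minus Yl_5_3 (vertical axis) against the mean log2(CPM + 0.5) over the 6 samples (horizontal axis), with 1 point per tested feature and dotted lines at 2-fold. The 294 stringent features higher in Yl_5_2 spread over low and middle levels above the upper line, while 41 lie below the lower line.

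The even split of all called features depends on the scaling, and the excess of large rises does not. When libraries were scaled by their totals alone, the median log2 fold change of all features was 0.15 instead of 0.00, and 3050 of 4306 called features (70.8%) were higher in Yl_5_2, against 50.6% under TMM. A log2 fold change of small size therefore has a direction only relative to the median feature. Under that scaling by total counts the stringent features were 404 higher and 31 lower in Yl_5_2, or 92.9% higher. Under the other scalings, filters, tests of no change and omitted samples this share was at least 87.5%, and a test against 2-fold (edgeR's glmTreat, adjusted p under 0.05) called 179 higher and 28 lower.

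In all 335 stringent features the 3 samples of Yl_5_2 lay apart from the 3 of Yl_5_3, where 4390 of all tested features (72.9%) showed such a separation, 2199 higher (36.5%) and 2191 lower (36.4%) in Yl_5_2. A further 25 features differed by more than 2-fold and missed an adjusted p of 0.001, and 18 of them had a higher group mean under 10 CPM (counts set to an equal library size). Among them was the largest fitted difference of all. XM_504938.1, singled out after its values were seen, had 0.583, 54.1 and 0.785 TMM-normalized CPM in Yl_5_2, against 0.825, 0.146 and 0 in Yl_5_3. A single library of Yl_5_2, replicate 2, carried the difference, and the groups overlapped. Its log2 fold change was 5.82 with an SE of 3.01 (adjusted p = 0.158, edgeR with Benjamini-Hochberg), and without that library it was 1.07.

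Direction went with abundance. The features were put into 10 equal groups by their mean log2(CPM + 0.5) over the 6 samples, a measure that is not per length. In the lowest group, 37.9% were called higher and 8.8% lower in Yl_5_2, and in the highest group 18.4% were called higher and 63.3% lower. Over all features these shares were 34.8% and 34.1%. The median log2 fold change was 0.27 in the lowest group and -0.22 in the highest, and it fell at every step between them. Single samples of Yl_5_2 against the mean of Yl_5_3 gave medians of 0.25, 0.22 and 0.23 in the lowest group and -0.21, -0.22 and -0.22 in the highest. The 3 libraries thus lay close together at both ends. Under total counts the medians were 0.42 in the lowest group and -0.07 in the highest, a shift of all groups alike that leaves their differences as they are and turns groups 6 to 9 positive. Of the 294 stringent features higher in Yl_5_2, 85 were in the lowest group and 3 in the highest, and of the 41 lower ones 6 were in the lowest and 5 in the highest. Low features can pass the count filter through the samples of a single strain. When each of the samples had to reach 50 counts, the median was 0.19 in the lowest group and -0.21 in the highest. The direction of the trend stayed, while the size of the rise in the lowest group depended on the filter. That filter left 225 stringent features higher and 32 lower in Yl_5_2.

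**Figure D2:**
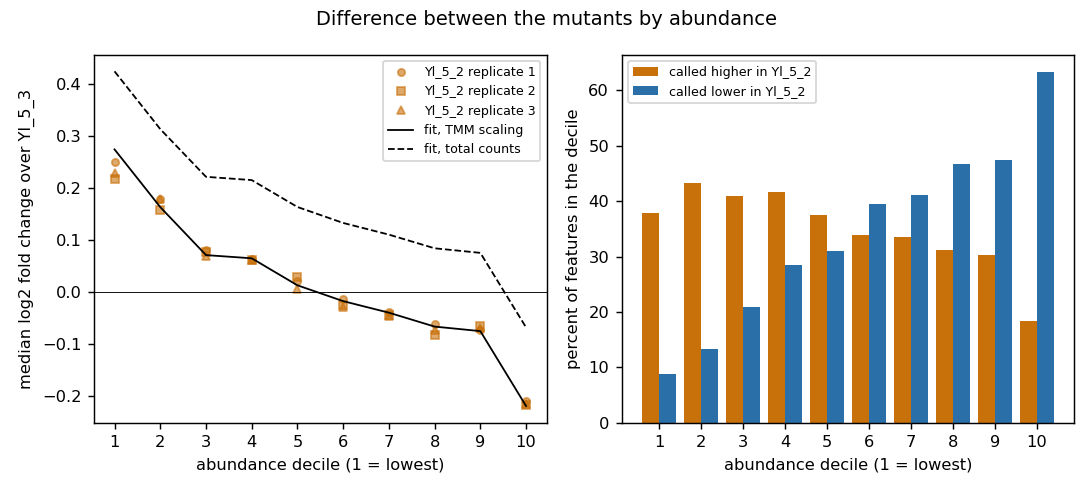
Left, median log2 fold change over Yl_5_3 in 10 abundance groups, with points for each Yl_5_2 sample and lines for the fit under TMM (solid) and total counts (dashed). Right, percent of each group called higher or lower in Yl_5_2; the called-lower share is 8.8% in group 1 and 63.3% in group 10.

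The most abundant transcripts took a smaller share of the library in Yl_5_2. The 10 most abundant features of each sample held 7.0% to 7.14% of the counts in Yl_5_2, against 8.88% to 9.02% in Yl_5_3 and 8.35% to 8.54% in the control. For the top 100 the shares were 22.4% to 23.2% in Yl_5_2, against 26.7% to 27.1% in Yl_5_3 and 25.1% to 25.2% in the control. For the top 500 they were 49.7% to 50.6% in Yl_5_2, against 54.6% to 55.2% in Yl_5_3 and close to 52.7% in the control. The 3 strains did not overlap in any of these shares, and the control lay between the mutants in each.

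**Figure D3:**
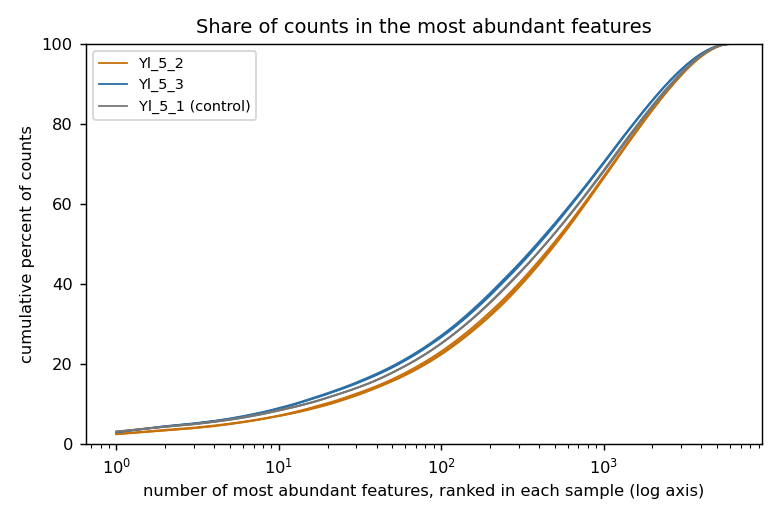
Cumulative percent of counts (vertical axis) held by the most abundant features, ranked within each sample (horizontal axis, log scale), with 1 line per sample and a colour per strain. At the top 100 the Yl_5_2 lines lie lowest (22.4% to 23.2%), the Yl_5_3 lines highest (26.7% to 27.1%) and the control lines between them (25.1% to 25.2%), while at the single most abundant feature the control lines are highest.

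Of the 100 features with the highest mean FPKM over the 6 samples, 6 were called higher and 86 lower in Yl_5_2, where the shares were 34.8% and 34.1% over all features and 18.4% and 63.3% in the highest abundance group. They had a median log2 fold change of -0.44 under TMM and -0.29 under total counts. FPKM values divide the count by length and by the library total, so they allow levels of different features to be set side by side. The first of all was XM_501628.1 (locus tag YALI1_C12642g), with 17691, 18518 and 18090 FPKM in Yl_5_2, against 21641, 21285 and 21734 in Yl_5_3. The samples of the mutants did not overlap, and the log2 fold change was -0.40 (SE 0.04, adjusted p = 1.9e-06, edgeR with Benjamini-Hochberg). XM_502776.1 (YALI1_D16249g) had 14469, 15135 and 13889 FPKM in Yl_5_2, against 21644, 21738 and 22416 in Yl_5_3. Its level was close to that of XM_501628.1 in Yl_5_3 and below it in every Yl_5_2 sample, and its log2 fold change was -0.75 (SE 0.05, adjusted p = 7.89e-09, edgeR).

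The next 3 in order were short features. XM_002143065.1 (YALI1_F03215g) had 12717, 13142 and 11909 FPKM in Yl_5_2, against 20091, 19177 and 20007 in Yl_5_3, and fell by 0.80 on the log2 scale (SE 0.05, adjusted p = 4.25e-09, edgeR). XM_002143009.1 (YALI1_D06233g) had 14702, 15842 and 13082 FPKM in Yl_5_2, against 15454, 14647 and 15097 in Yl_5_3, where the samples overlapped in FPKM and not in TMM-normalized CPM. Its log2 fold change was -0.20 (SE 0.06, adjusted p = 0.0122, edgeR with Benjamini-Hochberg) under TMM and -0.05 under total counts (adjusted p = 0.45), so the call rests on the scaling. XM_002143064.1 (YALI1_E41367g) had 13735, 15193 and 12080 FPKM in Yl_5_2, against 16160, 14996 and 16431 in Yl_5_3, again with an overlap in FPKM and none in TMM-normalized CPM. It had a log2 fold change of -0.36 (SE 0.08, adjusted p = 0.00247, edgeR). These 3 are 216 to 273 bases long, and the products of all 5 are not named in the sources used here.

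The stringent differences can be read against the control, which was kept out of the fit and scaled to the same library. The features were chosen for the contrast of the mutants, and both ratios below share the control, so its position is given as a description. Over the 294 features higher in Yl_5_2, the median level was 32.4 CPM in Yl_5_2, against 11.3 in Yl_5_3 and 22.6 in the control. The control mean lay between the mutants in 211 of them (71.8%), above both in 51 and below both in 32. Over all tested features it lay between in 46.5%. It was nearer to Yl_5_2 on the log scale in 200 (68.0%) and nearer to Yl_5_3 in 94. The median log2 ratio to the control was 0.41 for Yl_5_2 and -1.0 for Yl_5_3. More than 2-fold from the control were 66 of these features in Yl_5_2 and 148 in Yl_5_3. For nearness and for this fold, the share over all tested features was not counted. In 23 of the 294 the Yl_5_3 mean was under 1 CPM.

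For the 41 features lower in Yl_5_2 the control lay about midway by the medians, while single features varied. Their median level was 23.3 CPM in Yl_5_2, against 72.1 in Yl_5_3 and 44.4 in the control. The control mean lay between the mutants in 26 (63.4%), above both in 6 and below both in 9. It was nearer to Yl_5_2 in 19 and to Yl_5_3 in 22. The median log2 ratio to the control was -0.68 for Yl_5_2 and 0.61 for Yl_5_3, and 17 features in Yl_5_2 and 13 in Yl_5_3 were more than 2-fold from the control. Nearness and the 2-fold counts again have no share over all tested features beside them.

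**Figure D4:**
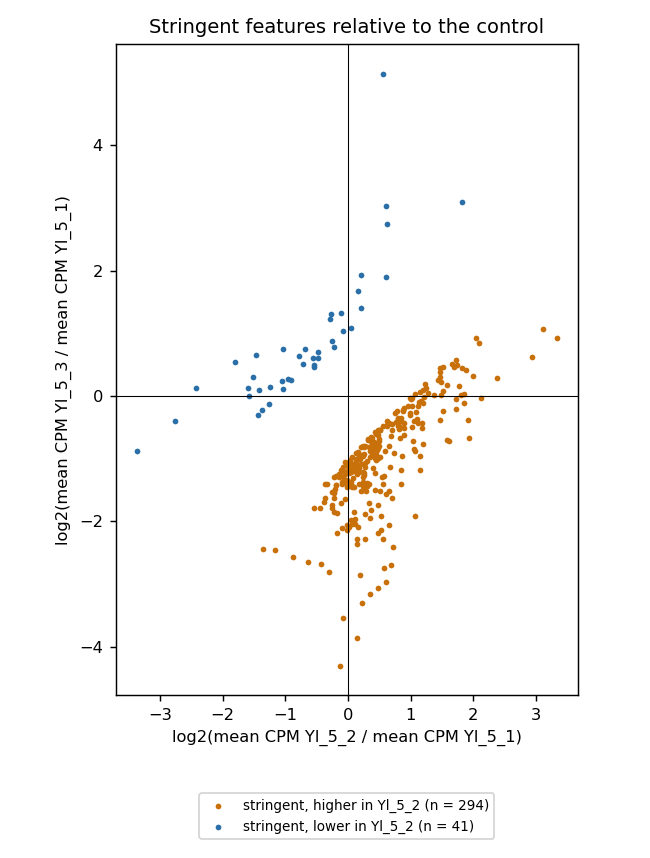
Log2 ratio of the mean CPM of Yl_5_2 (horizontal axis) and of Yl_5_3 (vertical axis) to the control Yl_5_1 for the 335 stringent features, with 1 point per feature and lines at no difference. Most of the 294 features higher in Yl_5_2 lie below the horizontal line, with medians of 0.41 for Yl_5_2 and -1.0 for Yl_5_3.

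The largest rises were features that were far below the control in Yl_5_3 and mostly less far above it in Yl_5_2. The rule for them took stringent features without overlap and with a higher group mean of at least 10 CPM, which left 218 rises and 35 falls. The 12 largest rises had log2 fold changes of 2.51 to 4.0, and for all 12 the control was nearer to Yl_5_2. All 3 Yl_5_3 samples lay below all control samples in 12 of the 12. The Yl_5_2 samples lay above all control samples in 8 of them and overlapped the control in 4. How often all tested features lay apart from the control was not counted, so whether these counts are unusual cannot be said. The 72.9% that lay apart between the mutants belong to another contrast and give no baseline for the control. The 12 were also chosen for the contrast of the mutants, so the counts are a description. Their log2 ratios to the control were 0.14 to 1.08 for Yl_5_2 and -3.86 to -1.91 for Yl_5_3. The 12 features fall on all 6 chromosomes of the W29 reference annotation, from 1A to 1F, with 4 on 1D.

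The first of them was XM_503727.1 (YALI1_E11402g). It had 118, 117 and 137 TMM-normalized CPM in Yl_5_2, against 6.82, 8.06 and 8.24 in Yl_5_3, and 123, 108 and 104 in the control. The Yl_5_2 samples overlapped the control while every Yl_5_3 sample was far below both. The mean was 124 ± 11.1 CPM in Yl_5_2 and 7.71 ± 0.771 CPM in Yl_5_3 (SD, n = 3 each), a log2 fold change of 4.0 (SE 0.08, adjusted p = 4.76e-13, edgeR with Benjamini-Hochberg). The second, XM_499884.1 (YALI1_A08546g), had 74.2, 71.6 and 83.5 CPM in Yl_5_2, against 7.10, 6.36 and 5.97 in Yl_5_3, and 57.9, 45.9 and 47.1 in the control. Here Yl_5_2 lay above every control sample as well, and the log2 fold change between the mutants was 3.56 (SE 0.08, adjusted p = 4.89e-13, edgeR).

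The 12 largest falls were less uniform, with log2 fold changes of -4.58 to -1.58. All 3 Yl_5_3 samples lay above all control samples in 9 of them, and all 3 Yl_5_2 samples lay below all control samples in 7. For these counts, too, the share over all tested features was not counted. The control was nearer to Yl_5_2 in 5 of the 12. XM_501117.1 (YALI1_B26033g) had 1.48, 1.53 and 1.47 CPM in Yl_5_2, against 31.5, 39.4 and 36.4 in Yl_5_3, and 0.927, 1.26 and 0.843 in the control. It was high in Yl_5_3 alone, and its log2 fold change was -4.58 (SE 0.13, adjusted p = 1.86e-12, edgeR with Benjamini-Hochberg). XM_504620.1 (YALI1_E36619g) showed the other pattern, with 24.4, 21.8 and 23.6 CPM in Yl_5_2, against 134, 133 and 144 in Yl_5_3, and 114, 112 and 148 in the control. It was low in Yl_5_2 while Yl_5_3 overlapped the control, and its log2 fold change was -2.56 (SE 0.05, adjusted p = 3.23e-13, edgeR).

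**Figure D5:**
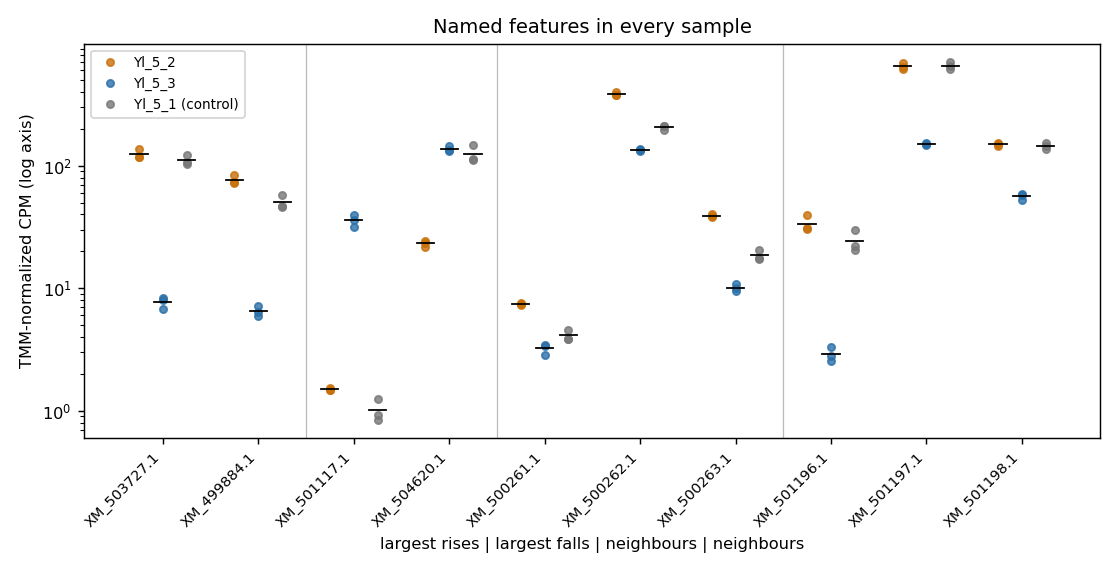
TMM-normalized CPM (log axis) of the 2 largest rises, the 2 largest falls and both runs of 3 neighbours, with 1 point per sample and a bar at the mean, in the order Yl_5_2, Yl_5_3 and control Yl_5_1. XM_503727.1 sits at 117 to 137 CPM in Yl_5_2 and at 6.82 to 8.24 CPM in Yl_5_3, and XM_501117.1 at 1.47 to 1.53 CPM in Yl_5_2 and 31.5 to 39.4 CPM in Yl_5_3.

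The median difference was small on every chromosome, while the share of stringent features varied. Of the tested features, 5384 carry a locus tag of strain W29, and the median log2 fold change per chromosome was between -0.02 and 0.03. The percentage of stringent features per chromosome was between 4.58 on 1F and 8.11 on 1A, against 5.56 over all tested features. Whether chromosomes differ in this was not tested. Neighbours were features that followed each other among those tested in annotation order, which is the order of W29 and may differ in ATCC 201249. Of 5378 neighbouring pairs, 22 were stringent in both members, of which 18 were higher in Yl_5_2 together, 0 were lower together and 4 were opposite. The 18 pairs higher together form 14 runs of 2 and 2 runs of 3, with 34 features. Other annotated genes, up to 4, lie between the members of some runs. Of all features with a locus tag, 308 were stringent and 271 of these were higher in Yl_5_2, so a direction of higher was the usual one among stringent features, in runs or not. How many pairs and runs these shares alone would give was not computed, so the counts do not tell whether stringent features are in excess among neighbours. None of these neighbouring gene models overlapped. Among the 2672 neighbouring pairs in which both were called, 53.4% had the same direction.

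Both runs of 3, described after their values were seen, showed unequal differences within the run. In the run on 1B, XM_501196.1 (YALI1_B28430g) had 31.0, 30.2 and 39.6 CPM in Yl_5_2, against 2.81, 3.30 and 2.57 in Yl_5_3, a log2 fold change of 3.52 (SE 0.14, adjusted p = 1.73e-10, edgeR). XM_501197.1 (YALI1_B28454g) had 636, 618 and 692 CPM in Yl_5_2, against 149, 147 and 152 in Yl_5_3, a log2 fold change of 2.12 (SE 0.04, adjusted p = 3.23e-13, edgeR). XM_501198.1 (YALI1_B28472g) had 153, 149 and 145 CPM in Yl_5_2, against 59.1, 52.6 and 57.4 in Yl_5_3, a log2 fold change of 1.40 (SE 0.05, adjusted p = 1.57e-11, edgeR). The control samples overlapped those of Yl_5_2 in XM_501197.1 and XM_501198.1, at means of 658 and 145 CPM. In XM_501196.1 they lay below every Yl_5_2 sample, at a mean of 24.1 CPM.

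The run on 1A lay farther above the control in Yl_5_2. The log2 ratios of Yl_5_2 to the control were 0.85, 0.90 and 1.08 in this run, against 0.48, -0.02 and 0.04 in the run on 1B. XM_500261.1 (YALI1_A20965g) had 7.36, 7.24 and 7.59 CPM in Yl_5_2, against 2.86, 3.45 and 3.40 in Yl_5_3, a log2 fold change of 1.19 (SE 0.12, adjusted p = 1.02e-06, edgeR). XM_500262.1 (YALI1_A20995g) had 376, 403 and 380 CPM in Yl_5_2, against 135, 137 and 132 in Yl_5_3, a log2 fold change of 1.52 (SE 0.04, adjusted p = 8.31e-13, edgeR). XM_500263.1 (YALI1_A21000g) had 37.9, 40.7 and 38.6 CPM in Yl_5_2, against 10.7, 9.51 and 10.1 in Yl_5_3, a log2 fold change of 1.95 (SE 0.07, adjusted p = 1.91e-11, edgeR). The control lay between the mutants in each, with means of 4.11, 207 and 18.5 CPM. Whether the counting used strand is not given in the sources used here, so reads of close neighbours may be shared.

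The authors added unannotated transcripts under numbers of their own. Of the 178 tested, 55.1% were called, 40 higher and 58 lower in Yl_5_2, and of the 5848 features with a RefSeq accession 69.3% were called. Over all tested features, 34.8% were called higher and 34.1% lower. The stringent share was 2.25% among the unannotated transcripts and 5.66% among features with a RefSeq accession. The differences in share were not tested. All 4 stringent ones were higher in Yl_5_2, as were 87.8% of all stringent features. Novel00096 had 197, 210 and 187 CPM in Yl_5_2, against 73.9, 67.6 and 71.6 in Yl_5_3, a log2 fold change of 1.48 (SE 0.05, adjusted p = 1.21e-11, edgeR). The other three, Novel00020, Novel00125 and Novel00161, had log2 fold changes of 2.57, 1.56 and 1.20. Novel00020 rests on 11, 20 and 14 counts in Yl_5_2, against 2, 2 and 3 in Yl_5_3 (SE 0.47), and was no longer stringent without Yl_5_3 replicate 1 (adjusted p = 0.00166, edgeR) or replicate 2 (adjusted p = 0.00141). It passed the count filter only through Yl_5_2, and without any 1 of the Yl_5_2 samples it was not tested. On the log2(FPKM + 1) scale, which understates low features, Novel00020 and Novel00161 differed by 0.84 and 0.95, under 2-fold.

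Stringent features were scarcest among the longest. In 5 groups by length, the percentages that were stringent were 5.14, 8.20, 6.23, 5.99 and 2.24 from the shortest to the longest group, while the percentages called at all were between 67.4 and 70.2. The median length was 1111.5 bases for the 294 features higher in Yl_5_2, 1098 for the 41 lower ones and 1248 over all tested features.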

How the data were processed

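RNA of 9 samples (3 strains, 3 samples each) was sequenced in paired ends by Illumina after NEBNext Ultra library preparation. The authors deposited raw whole-number read counts for 6145 features. The authors also deposited FPKM values, which are these counts divided by feature length and library total. The submitters' processing notes name HTSeq 0.6.1 and DESeq 1.18.0; the aligner and genome build are not given in the sources used here. Columns of sample values not used: 0.

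Counts of the 6 mutant samples were fitted in R 4.3.3 with edgeR 4.0.16 (TMM, robust quasi-likelihood F test, Benjamini-Hochberg over 6026 features). Standard errors were derived from each fold change and its F value. Control samples were scaled to the same TMM reference library and left out of the fit. The pipeline was tested on simulated data for this comparison with 6018 features, of which 200 were changed. Of 50 changed by each of 1.25, 1.5, 2 and 4-fold, edgeR recovered 37, 48, 48 and 50. It made 13 false calls (6.63%). In the data 68.9% of features were called, so these rates do not carry over to them. Depth limits precision mainly in low features.

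Named features were Yl-SPT15 and GUT2 where identifiable, the 12 largest rises and falls among stringent features without overlap and with a higher mean of at least 10 CPM (at most 2 by accession each way), members of gene lists, and the 5 features of highest mean FPKM. Of 5959 accessions, 5430 matched the RefSeq genes of W29 (assembly ASM176148v1, 8689 genes), where every symbol is the locus tag. The files do not pair accessions with gene names, so the gene lists, Yl-SPT15, GUT2 and promoter TATA words were not analysed here. The comparison and its rules were chosen with earlier results of these data known. Alternatives were other scalings, DESeq2 1.42.0, limma 3.58.1 on log2(FPKM + 1) and log2(FPKM + 0.1), other filters, all 9 samples, a replicate block, omission of each sample and a test against 2-fold.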

Additional observations from a re-analysis of the deposited data

How the results depend on the processing

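Over all alternatives, 77 of the counts of called or stringent features stayed within 1.5 times and 5 did not. Those were the features called lower in Yl_5_2, which were 1256 under total counts and 1232 under limma on log2(FPKM + 1) and log2(FPKM + 0.1), against 2052, and the stringent ones lower, which were 25 under limma on log2(FPKM + 1), against 41. The stringent features higher were 179 by edgeR's glmTreat against 2-fold, against 294. Without each sample in turn, 3812 to 4095 features were called, 1925 to 2074 higher and 1887 to 2021 lower, with 276 to 296 stringent ones higher and 39 to 42 lower. With a replicate block, 3980 were called, 2025 higher and 1955 lower, with 293 and 41 stringent. Deviations of samples with equal replicate numbers correlated at 0.002, -0.11 and -0.02, and those with unequal numbers at -0.11 to 0.13. No pairing by number was seen, but with 3 samples per strain this cannot exclude one.

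Of the features named, all kept their direction under every alternative that tested them, and only XM_002143009.1 lost its call, under total counts (adjusted p = 0.45) and under limma on log2(FPKM + 1) (0.506) and log2(FPKM + 0.1) (0.504). Runs of neighbouring stringent features numbered 10 with at least 50 counts in every sample, 12 to 15 without single samples and 25 under total counts, against 16. The share of stringent features higher in Yl_5_2 with the control nearer Yl_5_2 stayed between 66.7% and 69.2% without single samples. The alternatives for gene lists were not run, because no feature could be named. Depth and spread limit small differences: of 50 simulated at the smallest fold, edgeR recovered 37.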

Other observations

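Of the 12 largest falls, 3 share a length of 1107 bases and lie on different chromosomes (1A, 1C and 1F). This was noticed after their values were seen. In these 3 features the samples ranged over 3.04 to 9.96 CPM in Yl_5_2, against 15.6 to 43.5 CPM in Yl_5_3 and 2.19 to 5.96 CPM in the control, with log2 fold changes of -2.43 to -1.73 (edgeR). Of the 15 tested features with that length, 5 were stringent and lower in Yl_5_2, a count that includes the 3 that drew attention to it, and 0 were stringent and higher. Over all tested features 0.68% were stringent and lower and 4.88% stringent and higher. Whether they share sequence, and so reads, was not tested.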
